A study of Mus musculus with 6 samples.

Results

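Immediate early genes were measured in double-negative thymocytes, the CD4- and CD8-negative T cell precursors of the thymus, of RAG1-deficient and RAG1/Ezh2 double mutant mice. The 10 genes Btg2, Fos, Fosb, Jun, Junb, Jund, Egr1, Klf4, Zfp36 and Ier2 were taken by name, and every probe set that the platform table assigns to exactly 1 gene, that gene being one of them, was used. This gave 14 probe sets out of 12422, and 11 of the 14, covering all 10 genes, were bright enough to test among 7642 tested. The members were not chosen by a threshold on measured values, but they were named with earlier results of these arrays known. Each group had 3 single-colour Affymetrix arrays. Both groups were deficient in RAG1, without which antigen receptor genes are not rearranged, and the double mutant was in addition mutant for Ezh2, the H3K27 methyltransferase of Polycomb repressive complex 2. The titles of 2 RAG1-deficient arrays end in WT, which the labels do not explain. The labels give no strain, sex, age, treatment, Ezh2 allele or Cre driver and do not say whether arrays of a group came from separate animals, so p-values cover only the spread between these arrays, which may be technical.

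The sample titles come in 3 wordings, called here the numbered, Rag and Thy styles, with 1 RAG1-deficient and 1 double mutant array in each. Arrays of a style deviated from their group means together, so each style was treated as a pair and the fit with style as a block is called the paired fit. Differences are double mutant minus RAG1-deficient, on the scale log2(scaled intensity + 23), a scale on which differences of dim probe sets come out too small. An SE beside a difference is that of the paired fit unless stated otherwise; the unpaired SEs of the members are drawn in the plot of pair differences and are larger. Intensities can be compared between arrays for 1 probe set but not between probe sets.

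Immediate early genes are transcribed within minutes of a stimulus without new protein synthesis, mostly through MAP kinases acting on factors such as SRF and CREB that already sit at their promoters. Fos and Jun proteins pair through leucine zippers into the transcription factor AP-1, while other members shut the response down again. In thymocytes, signals from the pre-T cell receptor and the T cell receptor are known to induce Egr and AP-1 genes, and Btg2 belongs to the antiproliferative BTG/Tob family and is also a target of p53.

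Among the members, only Btg2 passed a test between the groups, and it passed in the paired fit alone, where it fell to between 54.5% and 63.9% of its RAG1-deficient partner in the 3 pairs. The AP-1 genes Fos, Fosb, Jun and Junb differed between title styles, as Btg2 and Ier2 also did, and did not pass between the groups. In their tested probe sets the Thy array was the brightest of each group. Fos was the extreme case, with both Thy arrays at least 11.5 times as bright as any other array. In each of the 3 pairs the double mutant array was also the lower one for Klf4 and Zfp36, which did not pass.

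Among the known inputs to immediate early promoters are cAMP response elements (CRE) and AP-1-like sites. For this reason the bases upstream of the start are shown for Btg2, the only member that passed between the groups, in the paired fit alone. They are also shown for Fos and Jun, the AP-1 members with the smallest p between styles. They are the RefSeq sequences of build GRCm38.p6, 250 bases ending at the base before the annotated start, read 5′ to 3′ on the strand of the gene: chr1:134079156-134079405 on the minus strand for Btg2, chr12:85473640-85473889 on the plus strand for Fos and chr4:95052223-95052472 on the minus strand for Jun. Capitals mark matches on either strand to the CRE palindrome TGACGTCA, to its core TGACG, to the AP-1 site TGANTCA or to the related octamer TGACNTCA, motifs that overlap one another.
Btg2: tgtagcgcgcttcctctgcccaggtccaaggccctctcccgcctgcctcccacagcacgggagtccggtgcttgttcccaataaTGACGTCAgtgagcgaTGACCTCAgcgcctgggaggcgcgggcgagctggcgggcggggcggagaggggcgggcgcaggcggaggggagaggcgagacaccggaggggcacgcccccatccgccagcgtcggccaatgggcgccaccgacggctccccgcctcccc
Fos: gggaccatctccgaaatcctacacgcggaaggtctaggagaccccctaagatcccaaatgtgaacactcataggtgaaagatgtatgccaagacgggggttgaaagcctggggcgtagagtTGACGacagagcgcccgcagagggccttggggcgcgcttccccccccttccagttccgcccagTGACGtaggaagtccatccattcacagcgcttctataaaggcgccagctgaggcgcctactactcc
Jun: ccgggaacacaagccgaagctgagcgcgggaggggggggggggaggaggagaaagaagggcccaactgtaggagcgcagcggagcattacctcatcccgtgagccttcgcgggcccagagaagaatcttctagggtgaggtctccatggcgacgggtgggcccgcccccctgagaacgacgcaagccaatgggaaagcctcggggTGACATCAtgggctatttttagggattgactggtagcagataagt

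Such a window was read for 8 of the 10 members, all but Egr1 and Ier2. For Ier2 no entry was given. The search of members left out the chromosome that holds Egr1, whereas the share over all windows included it. Btg2 held the full CRE palindrome TGACGTCA at position -166, counted from the annotated start, and it was the only one of the 8 to do so; 1.55% of all 32851 windows of this length held it. The related octamer TGACNTCA was found in Btg2, at -166 and -150, and in Jun, where it reads TGACATCA at -45, against 7.49% of all windows. The 5-letter core TGACG was found in Btg2, Fos (at -129 and -66), Fosb, Junb and Klf4, against 17.8% of all windows, and the AP-1 site in none of the 8. The GC box GGGCGG, bound by Sp1-type factors, was found in 6 of the 8, all but Junb and Jund, against 32.7% of all windows, with 3 matches in Btg2 and 4 in Klf4. A CArG box, the site of SRF, was found in the window of Zfp36 only, at -58, against 1.47% of all windows. Sites further upstream than 250 bases, and those of Egr1 and Ier2, were not read. A member without a match here may therefore hold one elsewhere. These matches describe letters, and factor binding was not measured.

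Ezh2, the targeted gene, was lower on every double mutant array than on any RAG1-deficient array. It read 1435, 1641 and 1790 in the numbered, Rag and Thy arrays of the RAG1-deficient group and 292, 651 and 724 in those of the double mutant, a log2 difference of -1.60 that passed with pairing (limma, adjusted p = 0.0261) and not without it (adjusted p = 0.332). Which part of Ezh2 its probe set reads, and which part is deleted, is not given in the labels. Of 16 markers of double-negative thymocytes, 12 had a probe set and all 12 passed the filter. Rag1, 1 of the 12, read 6933, 7241 and 7264 in the RAG1-deficient and 5394, 5226 and 5171 in the double mutant arrays. Both groups were deficient in RAG1, and the labels do not say which part of Rag1 is altered. A second, dimmer probe set of Rag1 read 121 to 321. RAG1-deficient replicate 1, the numbered array, stood apart, with Cd8a at 2973 and Cd8b1 at 8426 where no other array exceeded 81.3 and 164. Cd4 was also highest there, at 699 against 52.3 to 273 on the others. The labels describe this array as double-negative thymocytes like the others. Results are therefore also given without it. In the whole table the unpaired fit called 3 probe sets (0.0393% of those tested) and the paired fit 51 (0.667%), of which 43 were higher (0.563%) and 8 lower (0.105%).

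**Figure D1:**
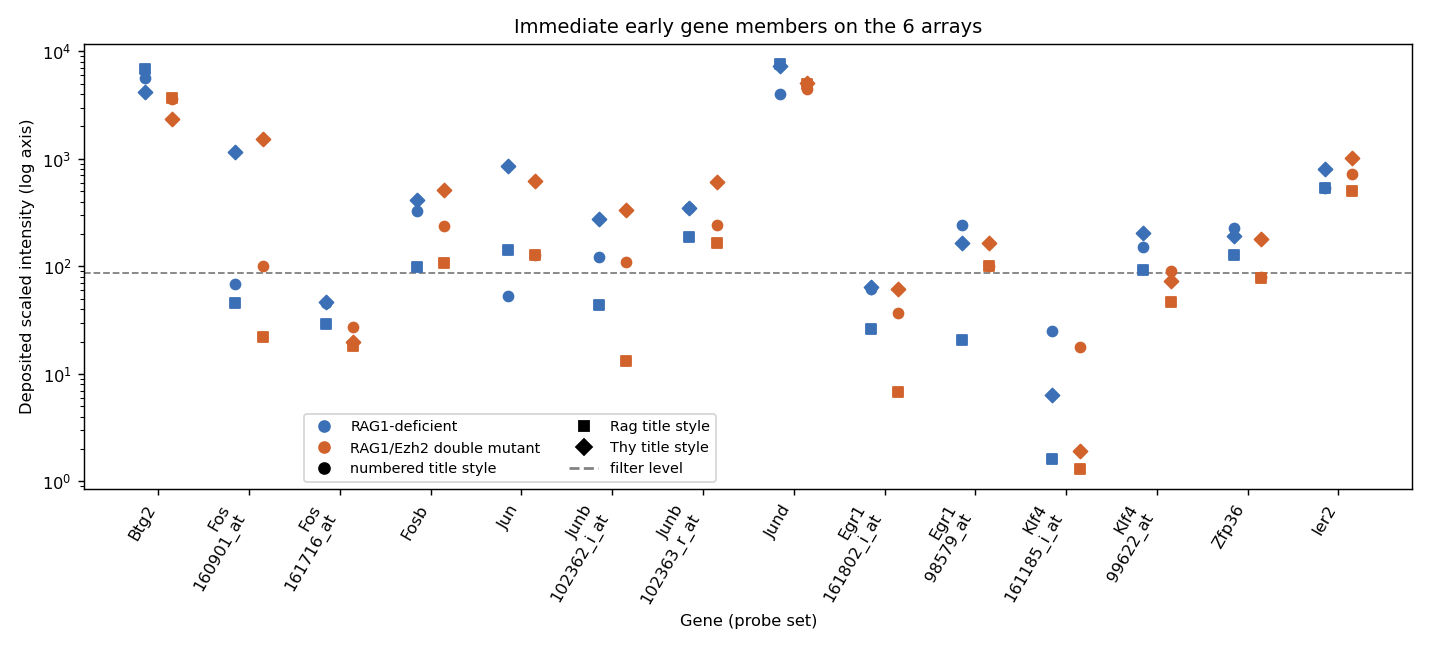
Deposited scaled intensity (log axis) of the 14 member probe sets on each of the 6 arrays; colour gives the group, marker shape the title style, and the dashed line the filter level of 86.5. Btg2 separates by group, with 2347 to 3709 in the double mutant against 4163 to 6802, whereas the diamonds of Fos at 1157 and 1543 stand above all its other points.

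Btg2, which slows proliferation and recruits the deadenylase complex that shortens mRNA tails, was bright on every array. It read 5686, 6802 and 4163 in the numbered, Rag and Thy arrays of the RAG1-deficient group and 3635, 3709 and 2347 in those of the double mutant. Every double mutant array lay below every RAG1-deficient array, and within each group the Thy array was the lowest. The means were 5550 ± 1325 (SD, n = 3) and 3230 ± 766 (SD, n = 3), and the double mutant stood at 63.9% of its partner in the numbered pair, 54.5% in the Rag pair and 56.4% in the Thy pair. The log2 difference was -0.78, with an SE of 0.28 without pairing and 0.11 with it. It did not pass in the unpaired limma fit (adjusted p = 0.9999, unadjusted p = 0.0215) and fell in the paired limma fit (adjusted p = 0.0328), 1 of the 11 tested member probe sets. An exact two-sided permutation test gave p = 0.1, the smallest that 3 arrays against 3 allow.

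The size of the Btg2 difference held without single pairs, but its call did not. Without the numbered pair, which holds the array with Cd8 transcripts, the log2 difference was -0.85 (paired limma fit, adjusted p = 0.167), without the Rag pair -0.73 (adjusted p = 0.0100) and without the Thy pair -0.76 (adjusted p = 0.125). Over 9 alternatives to the paired fit the adjusted p of Btg2 ran from 0.0100 to 0.169 and was under the threshold of 0.05 in 4. Markers of some other cells moved beside it. The summed level of 10 antigen-presenting markers was lower in the double mutant in each pair, at 22110 against 31773, 11363 against 24243 and 6485 against 6915. None of the 10 passed between the groups in either fit. In the Thy pair H2-Aa (765.5 against 645.6) and H2-Ab1 (470.5 against 378.6) were higher in the double mutant, as was Flt3 in the Rag pair. The summed level of 8 NK and innate lymphoid markers was 7784 to 10134 against 2665 to 4288. The brightest of these 8 was granzyme A (Gzma), at 4982 to 8096 against 1244 to 2796; without it the remaining 7 summed to 1754 to 2802 against 1420 to 2018, overlapping and lower in the double mutant of the Rag pair. Of the 8, 3 were higher in each pair (Gzma, Gzmb and Zbtb16) and 1, Eomes, was lower in each. Gzma and Gzmb passed in the paired limma fit (adjusted p = 0.00356 and 0.0261) and not in the unpaired fit. The summed level of the 12 double-negative markers was also lower in each pair, with 74317 to 106941 in the double mutant against 84151 to 124646. None of the 12 passed between the groups in either fit. Gata3 and Cd3g were higher in the double mutant in the numbered and Rag pairs, and Cd3e, Il2ra and Notch1 in the numbered pair. The others of this list were lower in each pair. The sum of the double-positive and mature T markers was lower in each pair too, at 2456 against 14259, 3481 against 3758 and 1989 against 2787. In the numbered pair most of the gap came from Cd8b1 (75.3 against 8426) and Cd8a (81.3 against 2973). Cd4, Cd8b1, Cd27 and Ccr7 were lower in each pair, whereas Cd6 and Klf2 were higher in each. Sums of the myeloid, neutrophil, B lineage, stromal and erythroid lists did not go the same way in every pair. In the stromal list Pdgfrb was higher in the double mutant in each pair, at 419.9, 536.5 and 404.8 against 135.4, 210.3 and 201.6. It passed in the paired limma fit alone (adjusted p = 0.0436). The lowest value in the whole table was 0.1, so a listed value alone does not show that a cell type was present. The part of these markers in the difference of Btg2 was not tested. In bulk RNA, fewer cells of a type and less transcript per cell cannot be told apart.

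The other measured members of the BTG/Tob family did not pass. Btg1, the closest relative of Btg2, read 1973, 1907 and 2357 in the RAG1-deficient arrays and 1212, 1094 and 1630 in the double mutant, in the order numbered, Rag, Thy. Its groups did not overlap, and its log2 difference of -0.67 ± 0.12 (SE) missed the threshold in the paired limma fit (adjusted p = 0.0660). Tob1 was above its partner in all 3 pairs, with a log2 difference of 0.27 ± 0.19 (SE). Btg4, a germ cell member, was under the filter and not tested. In Btg2 the group accounted for 63.2% of the sum of squares of the log2 values over the 6 arrays and the title style for 35.8%, against medians of 7.24% and 72.1% over all tested probe sets.

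The profile of Btg2 over the 6 arrays was compared with those of 6866 probe sets of other named genes by the root mean square distance between log2 values, each centred on its own mean. The 5 nearest were Rasl11b at a distance of 0.088, Pithd1 at 0.15, Pld3 at 0.16, Lemd2 at 0.18 and Cyba at 0.20, against a median of 0.61. Rasl11b, a small GTPase of the Ras family, read 189, 245 and 142 in the RAG1-deficient and 119, 146 and 74.5 in the double mutant arrays. All 5 were lower in the double mutant in each pair, which their choice by likeness to Btg2 largely fixes. None passed in the paired fit. The nearest member was Jund at 0.50.

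Klf4, a zinc finger factor linked to quiescence, was the other tested member whose groups did not overlap. Its brighter probe set read 150, 91.6 and 204 in the numbered, Rag and Thy arrays of the RAG1-deficient group and 89.6, 47.1 and 72.7 in those of the double mutant. The double mutant array lay below its partner in each pair, with the widest gap in the Thy pair. The log2 difference of -0.86 ± 0.27 (SE) did not pass in the paired limma fit (adjusted p = 0.252), and 2 of the double mutant values lie under the filter level of 86.5. A second, much dimmer probe set of Klf4, between 1.30 and 25.2 on all arrays, was not tested. Over all tested probe sets 2.92% were lower in the double mutant without overlap, and 2 of the 11 member probe sets were. Higher without overlap were 4.21% of all tested and 0 members.

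Zfp36, or tristetraprolin, which destabilises AU-rich mRNAs such as those of cytokines and of Fos itself, read 229, 128 and 192 in the RAG1-deficient and 79.9, 77.2 and 179 in the double mutant arrays. The groups overlapped through the Thy array of the double mutant. Its log2 difference of -0.66 ± 0.28 (SE) did not pass (paired limma fit, adjusted p = 0.384), and the difference in the Thy pair was only -0.09 against -1.29 in the numbered pair. This probe set can detect related transcripts. Btg2, Klf4 and Zfp36 were thus the 3 of 11 tested member probe sets that were lower in all 3 pairs, against 17.1% of all tested probe sets.

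**Figure D2:**
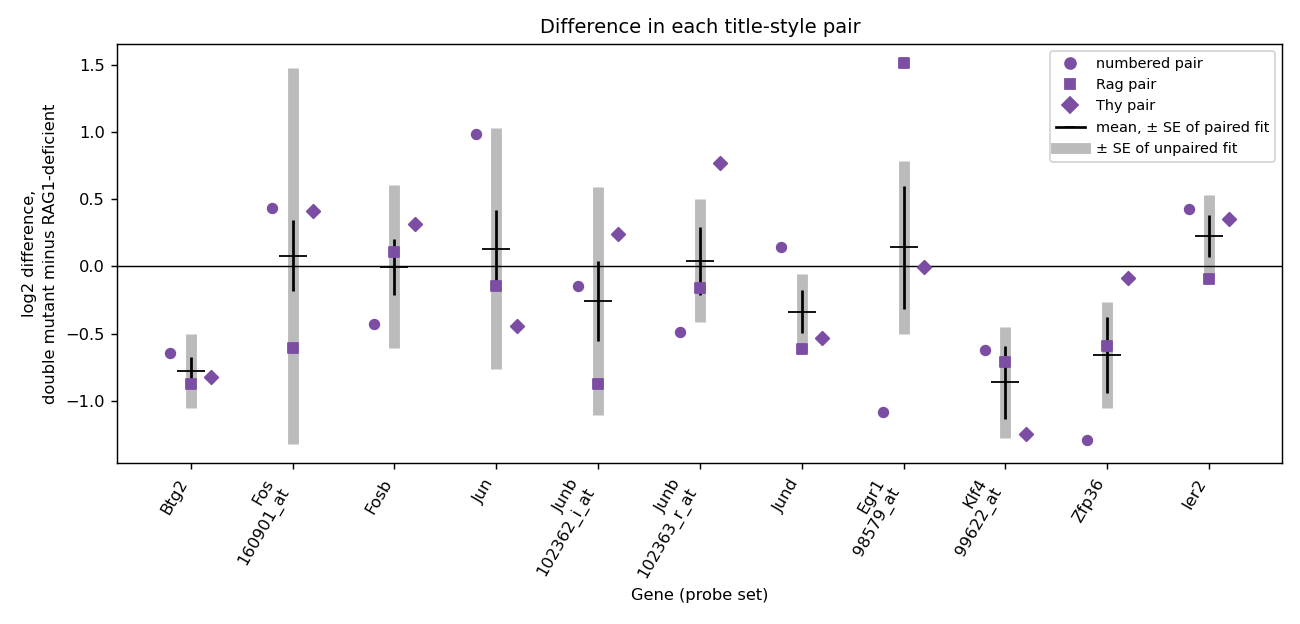
Log2 difference, double mutant minus RAG1-deficient, of the 11 tested member probe sets within each title-style pair (points), with the mean (black bar), the SE of the paired fit (black line) and the SE of the unpaired fit (grey). The 3 Btg2 points lie together between -0.87 and -0.64, whereas those of Egr1 run from -1.08 to 1.51.

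Fos, the AP-1 partner of the Jun proteins, did not differ between the groups beyond its spread and varied more than any other tested member. The brighter of its probe sets read 68.4, 45.4 and 1157 in the numbered, Rag and Thy arrays of the RAG1-deficient group and 100, 21.9 and 1543 in those of the double mutant. The Thy array was the only bright one in either group, and the Rag array was the dimmest in both. The log2 difference between the groups was 0.08 with an SE of 1.40, or 0.26 with pairing, and did not pass (paired limma fit, adjusted p = 0.928). Title style accounted for 98.5% of its sum of squares, and a moderated F-test in limma found a difference between styles (adjusted p = 8.1e-04). The second probe set of Fos lay between 18.3 and 47.0 on all arrays, under the filter, and did not show the bright Thy arrays.

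Jun, the partner of Fos in classical AP-1, followed Fos in its Thy arrays. It read 53, 143 and 862 in the RAG1-deficient and 128, 127 and 628 in the double mutant arrays. Both Thy arrays were at least 4.40 times as bright as any other. The log2 difference between the groups was 0.13 ± 0.29 (SE) and did not pass (paired limma fit, adjusted p = 0.884), while the styles differed (limma F-test, adjusted p = 0.00510).

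Junb, a Jun protein that often restrains AP-1, was read by 2 probe sets with the same order of styles. The first read 123, 43.3 and 277 in the RAG1-deficient and 109, 13.2 and 332 in the double mutant arrays. The second read 346, 187 and 347 and then 241, 165 and 607. In both, the Rag array was the lowest of its group and the Thy array the highest. The styles differed in either probe set (limma F-test, adjusted p = 0.00729 and 0.0438), and the groups did not pass (log2 differences of -0.26 ± 0.30 and 0.04 ± 0.25, SE). Both identifiers mark probe sets for which a full set of unique probes could not be picked.

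Fosb, a Fos paralogue, read 327, 98.9 and 411 in the RAG1-deficient and 237, 108 and 517 in the double mutant arrays. The Rag arrays were low and the Thy arrays high in both groups. Its log2 difference between the groups was -0.0014 ± 0.21 (SE), and the styles differed (limma F-test, adjusted p = 0.00687). Ier2, a small nuclear immediate early protein, read 533, 536 and 797 and then 724, 501 and 1023, again highest in the Thy array of each group. Its styles differed (limma F-test, adjusted p = 0.0428), though in only 4 of 12 alternatives. Its difference of 0.23 ± 0.16 (SE) between the groups did not pass.

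Jund, the Jun member that is present in resting cells, had another pattern. It read 4029, 7584 and 7313 in the RAG1-deficient and 4459, 4938 and 5046 in the double mutant arrays, so that the Rag and Thy arrays of the RAG1-deficient group lay above the rest. The log2 difference of -0.33 ± 0.16 (SE) did not pass (paired limma fit, adjusted p = 0.424) and neither did the test between styles (adjusted p = 0.102). Without RAG1-deficient replicate 1 the difference was -0.63 in the unpaired fit, and without the numbered pair it was -0.57 in the paired fit. Egr1, a zinc finger factor induced through MAP kinase signalling, read 241, 20.6 and 165 in the RAG1-deficient and 102, 101 and 164 in the double mutant arrays. Its pairs went in different directions, at -1.08, 1.51 and -0.0069, and it passed neither test. Without double mutant replicate 2 its styles differed (limma F-test, adjusted p = 3.1e-04), 1 of 11 alternatives in which they did. A second probe set of Egr1 lay under the filter, between 6.80 and 63.9.

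Between title styles 7 of the 11 tested member probe sets differed, against 30.2% of all tested probe sets. They were those of Btg2, Fos, Fosb, Jun, Ier2 and both of Junb. Without RAG1-deficient replicate 1 the test called 4 members, Fos, Fosb, Jun and the first Junb probe set, against 7.90% of all. Without double mutant replicate 1 it called 5 members, against 12.4% of all, and without double mutant replicate 3, the Thy array, 4 members, against 26.9% of all. Fos, Jun and the first Junb probe set passed in each of the 11 alternatives that tested them, and Fosb in each of 12. The other calls were less firm: of 12 alternatives Btg2 passed in 8, the second Junb probe set in 6 and Ier2 in 4. In a count chosen after the values were seen, both Thy arrays lay above the other 4 in 6 of the 11 member probe sets, against 15.0% of all tested, and both Rag arrays below the other 4 in 5, against 27.2%.

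The styles also differed in RNA controls and in markers of other cells. The 3′ control probe set of beta-actin read 4448 and 5826 on the Rag arrays and 23267 to 38661 on the others, and its ratio of 3′ to 5′ signal was 2.26 and 2.77 on the Rag arrays against 1.24 to 1.99. The lowest ratios, 1.40 and 1.24, were those of the Thy arrays. The 3′ signal of Gapdh was instead highest on the Rag arrays, at 24707 and 22838 against 14366 to 17709, with 3′ to 5′ ratios of 1.35 and 1.14 there and 0.836 to 1.04 elsewhere. On the Thy arrays the summed level of 4 erythroid markers was 571 and 1222 against 16925 to 30902 elsewhere, most of it from the haemoglobin gene Hba-a1, at 375 and 794 against 16352 to 30031. Alas2, the haem synthesis enzyme gene of red cells, was also low there, at 49.3 and 33.6 against 331 to 654, whereas Epor and Klf1 were highest on the Thy array of the double mutant, at 192 and 202. The summed level of the 10 antigen-presenting markers on the Thy arrays was 6915 and 6485 against 11363 to 31773. By group, the erythroid sum was 571 to 30902 in the RAG1-deficient and 1222 to 30765 in the double mutant arrays. The part of these differences in the levels of Fos, Jun, Junb and Fosb was not tested.

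**Figure D3:**
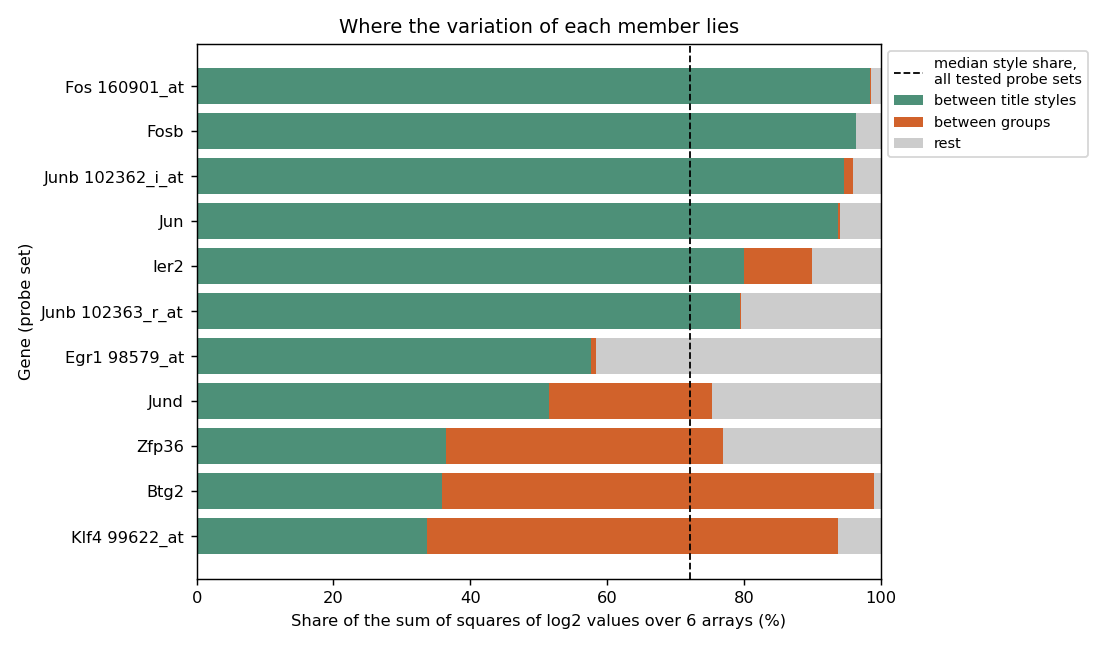
Share of the sum of squares of log2 values over the 6 arrays that lies between title styles, between groups and in the rest, for the 11 tested member probe sets; the dashed line is the median style share of all tested probe sets, 72.1%. Fos, Fosb, Jun and the first Junb probe set lie above 93% style, and Btg2 and Klf4 are the bars with most group share, 63.2% and 60.1%.

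The profile of Fos over the 6 arrays was nearest, by the same distance, to the 2 probe sets of the RNA helicase gene Ddx6 (0.84 and 1.01), the phospholipid flippase gene Atp8a1 (0.93), the bZIP repressor gene Bach1 (0.93) and the CDK inhibitor gene Cdkn1b (0.96), against a median of 1.99. The nearest members were Jun at 1.02 and the first Junb probe set at 1.06. Ddx6, picked for this likeness, was bright in the Thy arrays, with 2896 and 1568, and dim in the Rag arrays, with 54.8 and 102. Dusp1, named here after its values were known and not by the rule for named genes, is the phosphatase that switches off MAP kinases and is itself an immediate early gene. It read 161, 345 and 1094 in the RAG1-deficient and 221, 365 and 1075 in the double mutant arrays. It was high in the Thy arrays and differed between styles (limma F-test, adjusted p = 0.0015), while its group difference was 0.15 ± 0.16 (SE).

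Over the 11 member probe sets 5 lay above and 6 below 0, with a median log2 difference of -0.0014 against -0.0021 over all tested. Related genes were read from further lists, also chosen with earlier results of these data known, with the brightest tested probe set for each gene. Of 10 other AP-1 and related bZIP genes on the array 6 were tested, and none passed between the groups in either fit. Batf, an AP-1 factor of lymphocytes, read 71.8, 238 and 61.4 in the RAG1-deficient and 226, 362 and 217 in the double mutant arrays. It was higher in each pair, and its log2 difference of 1.15 ± 0.25 (SE) did not pass (paired limma fit, adjusted p = 0.124) except without the Rag pair (1.45, adjusted p = 0.0224). The differences were -0.42 for Mafk, 0.20 for the stress factor Atf4 and 0.23 for Atf3.

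Of 8 other tested immediate early regulators 5 lay above and 3 below 0, and none passed. The log2 difference was 0.41 ± 0.15 (SE) for Klf10, a TGF-beta-induced factor, 0.40 ± 0.26 (SE) for Klf2, which keeps T cells quiescent, 0.24 ± 0.19 (SE) for Ier3 and -0.20 ± 0.17 (SE) for Klf6. A second probe set of Klf10 showed 0.12. Between styles 4 of the 8 differed, against 30.2% of all tested probe sets.

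Of 13 tested feedback inhibitors 5 lay above and 8 below 0, with a median of -0.12, and none passed between the groups. Zfp36l1, a paralogue of Zfp36, had -0.35 ± 0.12 (SE), Rgs2, which dampens G protein signals, -0.44 ± 0.16 (SE), and Tnfaip3, an inhibitor of NF-kappaB, 0.67 ± 0.25 (SE), higher in each pair (paired limma fit, adjusted p = 0.329). Socs3, an inhibitor of cytokine receptor signalling, had -0.45 ± 0.16 (SE) without overlap, and its second probe set -0.25. Between styles 9 of the 13 differed, or 69.2%, against 30.2% of all tested probe sets.

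Genes upstream of the immediate early response did not pass either. Of 13 tested genes of the MAP kinase and SRF pathway 8 lay above and 5 below 0, with a median of 0.07. Mapk8, the stress kinase JNK1 that phosphorylates Jun, read 593, 418 and 456 in the RAG1-deficient and 844, 628 and 727 in the double mutant arrays. Its groups did not overlap, and its log2 difference of 0.57 ± 0.14 (SE) did not pass (paired limma fit, adjusted p = 0.155). Mapk14 had 0.24, Map2k2 -0.32 and Map2k3 -0.39, though a second probe set of Map2k3 showed 0.06. Of 12 tested heat shock and stress genes 9 lay above 0, with a median of 0.26, and none passed. Hspe1 had 0.37, Hsp90aa1 0.41, Hspa8 0.28 without overlap and Hspd1 0.27, with -0.22 in a second probe set of Hspd1.

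Of 8 other p53 targets tested, 5 lay above and 3 below 0, with a median log2 difference of 0.37. Ei24, a membrane protein gene, was the only one to pass, in the paired fit alone. It read 1309, 1567 and 1508 in the RAG1-deficient and 2410, 2441 and 2471 in the double mutant arrays. It rose by a log2 difference of 0.74 (paired limma fit, adjusted p = 0.0475), and its adjusted p ran from 0.0154 to 0.223 over 9 alternatives, under the threshold in 3. Without the numbered pair it was 0.67 (adjusted p = 0.223), and without the Thy pair 0.75 (adjusted p = 0.125). Ccng1, a cyclin-like gene, with 0.69 ± 0.16 (SE), and Phlda3, an inhibitor of Akt, with 1.29 ± 0.30 (SE), were higher without overlap but did not pass, except Phlda3 without the Rag pair (1.56, adjusted p = 1.5e-04), and Plk2 had 0.61 ± 0.26 (SE).

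**Figure D4:**
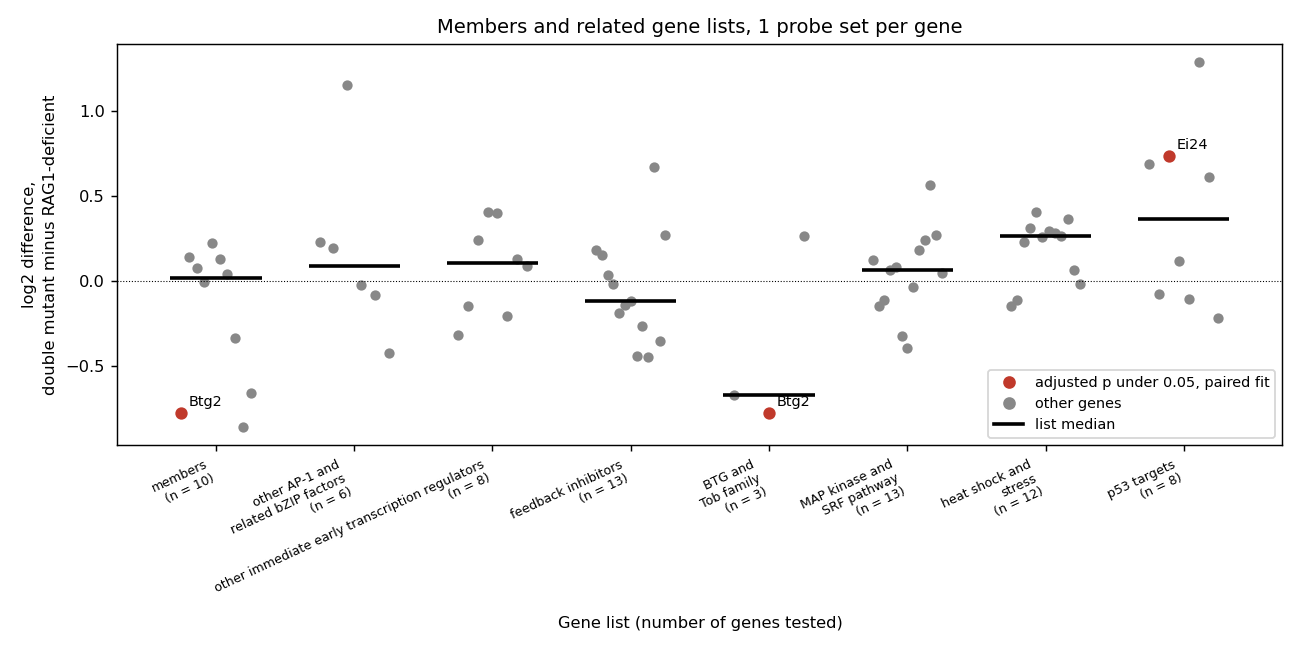
Log2 difference, double mutant minus RAG1-deficient, of each tested gene of the member list and of the 7 related lists, read by its brightest tested probe set; black bars are list medians and red points passed the paired fit. Btg2, at -0.78 and drawn in both lists that hold it, and Ei24, at 0.74, are the red points.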

How the data were processed

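Per the labels, total RNA of double-negative thymocytes was hybridised, and samples were grouped by their descriptions. The authors deposited linear intensities, 1 per array, of 12488 probe sets. The software that made it is not given in the sources used here. In the values, the 2%-trimmed mean was between 499.88 and 499.91 on every array, so the arrays had been scaled to a common mean before deposit, so that a shift of most transcripts together could not be seen. The number of arrays limits the precision, and no detection calls were used.

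The 66 control probe sets were left out of the tests. Gene names came from the platform table: 10833 probe sets had 1 gene, 396 several and 1193 none, and 10817 matched the RefSeq table of GRCm38.p6 by Entrez number. Values were tested as log2(intensity + 23) of the deposited intensity, 23 being the 20th percentile of all values. Probe sets above 86.5, the 40th percentile, on at least 3 arrays were tested. Groups were compared with limma 3.58.1 (lmFit, eBayes with trend) in R 4.3.3, two-sided. P-values were adjusted by Benjamini-Hochberg across the 7642 probe sets tested, at a threshold of 0.05. The paired fit added title style as a block. Deviations from the group means correlated at 0.570, 0.736 and 0.602 within the numbered, Rag and Thy styles, above the limit of 0.1 for pairing; pairs were taken from title wording, and no label states a shared litter or day. Styles were compared by the moderated F-test of the same fit. The fits were tested on simulated data. Figures were drawn with matplotlib 3.10.9.

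The members and gene lists were chosen with earlier results of these data known. Every member was named, with up to 4 genes of each related list by smallest paired p, any that passed, and the 5 profiles nearest to Btg2 and to Fos. The lists of cell type markers were read as sums, with single genes named beside them.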

Additional observations from a re-analysis of the deposited data

How the results depend on the processing

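The direction of Btg2 was the same under every alternative run, from -0.85 to -0.73 in the paired and from -0.97 to -0.56 in the unpaired fit with arrays left out. With the replicate block the unpaired value of -0.78 became a call, and the counts went from 3 higher and 0 lower to 43 and 8, with 1 member called in place of 0. Within the paired fit Btg2 missed the threshold without the filter (-0.78, adjusted p = 0.0755), with quantile scaling (-0.77, 0.0537) and without the trend (-0.78, 0.169), where 0 members were called. The paired counts of higher and lower were 5 and 0 without the filter, 17 and 0 with quantile scaling and 8 and 1 without the trend; with a pseudocount of 1, 24 were higher. Leaving out 1 pair gave 3 to 127 higher, 0 to 64 lower and 0 to 1 members: dropping the numbered pair left 12 higher and 2 lower, dropping the Rag pair 127 and 64, and dropping the Thy pair 3 and 0, with Btg2 at -0.76 in the last case. The unpaired count of higher was 6 with the stricter filter, 5 with quantile scaling and 0 to 6 with 1 array left out; at an unadjusted p under 0.05 that fit gave 175 higher and 69 lower, and 1 member. The member median ran from -0.62 to 0.41 with 1 array left out, which leaves a title style in 1 group only. Between styles, 4 members passed with the stricter filter, which tests only 5 of them (37.9% of all tested passed there), and 4 without the trend (1209, or 15.8%, of all); with 1 array left out, an alternative added after the values were seen, 4 to 8 members and 604 to 2076 of all passed.

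Members near 0 changed sign. Fos was at -0.019 with a pseudocount of 1, and Egr1 at -0.0071 with a pseudocount of 100, in both fits. With 1 array left out of the unpaired fit, Fos ran from -1.39 to 1.38, Jun from -0.65 to 1.13, Fosb from -0.56 to 0.50, the Junb probe sets from -1.05 to 0.60 and from -0.46 to 0.41, Egr1 from -0.64 to 0.66 and Ier2 from -0.020 to 0.48. With 1 pair left out of the paired fit, Fos ran from -0.099 to 0.42 (-0.087 without the Thy pair), Jun from -0.30 to 0.42, Fosb from -0.16 to 0.21, the Junb probe sets from -0.51 to 0.048 and from -0.32 to 0.30, Egr1 from -0.54 to 0.75 and Atf3 from -0.40 to 0.58. The cause was not tested where a call was lost. Dim members such as Klf4 and Egr1 lie near the filter level on some arrays, which limits what their differences show.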
